A study of Mus musculus with 8 samples.

Results

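The genes described here are the Wnt ligands, their receptors and secreted antagonists, and 4 nuclear effectors or feedback targets of the pathway. They were chosen by a rule on names, as protein-coding genes named *Wnt*, *Fzd*, *Sfrp*, *Dkk* or *Rspo* with a number. *Frzb*, *Wif1*, *Lrp5*, *Lrp6*, *Axin2*, *Lef1*, *Tcf7* and *Sp5* were added by name. The choice was made with earlier results of these data known. The rule gave 49 of 55487 genes in the files, of which 21936 are protein-coding. They comprise 19 Wnt ligands, 10 Frizzled receptors, 2 LRP co-receptors, 6 antagonists that bind Wnt proteins, 4 Dickkopf genes, 4 R-spondins and 4 effectors or targets.

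The study followed J1 mouse embryonic stem cells, a male line of strain 129S4/SvJae, as they were directed toward heart muscle. RNA was taken from stem cells at day 0 (ESC), mesoderm at day 4 (MES), cardiac progenitors at day 6 (CP) and cardiomyocytes at day 10 (CM), with 2 biological replicates per stage and 8 libraries in all. No genotype was altered at any stage. ESCs were kept with LIF and without ascorbic acid, whereas the later stages were labelled as treated with ascorbic acid and came from embryoid bodies, which are cell aggregates formed in hanging drops and then plated. Stage, culture form and medium therefore changed together and cannot be told apart. The later stages are mixed cultures from a single line, and in such bulk samples fewer cells of a type and less RNA per cell cannot be told apart.

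Wnt proteins are secreted, lipid-modified ligands that bind a Frizzled receptor together with Lrp5 or Lrp6 at the cell surface. Binding protects beta-catenin from a destruction complex, and beta-catenin then enters the nucleus and acts with DNA-binding proteins of the TCF/LEF family. Some ligands, among them Wnt5a and Wnt11, often act without beta-catenin, through polarity and calcium signalling. In the mouse embryo, Wnt3 is required for the primitive streak, the source of mesoderm, and at later times antagonists of beta-catenin signalling favour heart formation.

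The core motif that TCF/LEF proteins bind was searched for in promoter windows of RefSeq (build GRCm38.p6), which run from 250 bases before to 50 after each start site and total 300 bases. The forms searched were the letters CTTTGAT together with the variant CTTTGAA, further with the variant CTTTGTA, and finally with the variant CTTTGTT, each on both strands, and no other motif was searched. A window was given for 33 of the 49 genes, with 40 windows in all, and 7 of the 40 windows (17.5%) held a core, compared with 14.7% of 21262 windows of protein-coding genes. Counted by gene, a core was held by 7 of 33 genes (21.2%) and by 16.8% of 17491 protein-coding genes, so the share was near that of all genes. The 7 genes were *Sp5*, *Dkk1*, *Wnt3*, *Wnt5b*, *Lef1*, *Fzd7* and *Wnt11*. *Sp5* and *Dkk1* held 2 cores each. A match describes the letters only and is not evidence of binding.

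The stretches with a core are shown for *Sp5*, *Dkk1*, *Wnt3* and *Wnt5b*, 4 of the 5 genes with a core that were called higher in MES than in ESC and lower in CP than in MES, with each core in capitals and the sense strand read 5′ to 3′. The *Sp5* stretch is chr2:70474673-70474922 (plus strand), from -250 to -1 before the start at 70474923. The *Wnt5b* stretch is chr6:119449387-119449636 (minus strand), before the start at 119449386. This start lies inside the gene, which runs from 119432531 to 119544347. The other *Wnt5b* windows, at chr6:119467162-119467461 and chr6:119544298-119544597, held no core. Neither the *Sp5* nor the *Wnt5b* stretch overlaps an exon of the gene in GENCODE M21. For *Dkk1* and *Wnt3* 30 bases are shown, at chr19:30549586-30549615 (minus strand) and chr11:103774182-103774211 (plus strand), which lie wholly within an exon of the gene in GENCODE M21.
Sp5: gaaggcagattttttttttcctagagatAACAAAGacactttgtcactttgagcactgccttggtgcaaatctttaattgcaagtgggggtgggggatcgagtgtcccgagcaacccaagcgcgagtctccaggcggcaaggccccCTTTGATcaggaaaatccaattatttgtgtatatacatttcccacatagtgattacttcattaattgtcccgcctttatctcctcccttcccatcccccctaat
Wnt5b: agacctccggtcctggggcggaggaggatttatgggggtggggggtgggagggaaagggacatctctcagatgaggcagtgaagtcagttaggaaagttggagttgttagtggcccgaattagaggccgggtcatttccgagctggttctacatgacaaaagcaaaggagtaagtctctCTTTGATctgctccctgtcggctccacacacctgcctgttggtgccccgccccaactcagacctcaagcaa
Dkk1: agCTTTGAAatcccatcccggCTTTGTTgt
Wnt3: cctcaagtggaCTTTGTTccaactattggg
The fifth was *Lef1*, with a core in 1 of its 4 windows. Of 11 genes with both calls, 10 had a window. These genes were chosen by their calls, so their count is a description. The cores of *Sp5* begin at -222 and -104 and those of *Dkk1* at -117 and -98, counted from the start site. The core of *Wnt5b* begins at -71, and that of *Wnt3* lies after the start, at 19. No core lay in the window of *Axin2*, another target of beta-catenin, which says only that these letters are not there.

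Library totals lay between 18046063 and 19728777 counts. Levels are given as deposited TPM, which corrects a gene's count for its length and the library's total, so levels of different genes can be set side by side. Raw counts of 20071 genes, scaled by TMM, were tested between stages by edgeR's quasi-likelihood method. A call required a fold change above 2 or under 0.5 with an adjusted p below 0.05, and "rose" and "fell" refer to such calls, with log2 fold changes ± the standard error (SE). The CM replicates lay furthest apart, with a mean chi-square of 33.2 over genes, where that of the other stages was 3.71 to 6.4, although a gene's spread was taken as equal at all stages. Marker genes of other cell types moved with the stages. The summed TPM of 8 pluripotency markers averaged 6575 in ESC and 190 in MES, then 62.4 in CP and 104 in CM, and that of 8 mesoderm markers 10.4, 985, 673 and 327. The summed TPM of 10 cardiac muscle markers averaged 22.1, 126, 998 and 745. None of them was called higher in CM than in CP, where 8.17% of all tested genes were. Smooth muscle and fibroblast markers summed to 74.3, 1308, 9411 and 13521 TPM, blood markers to 3.56, 335, 4716 and 84.1, and epicardial markers to 29.3, 12.1, 116 and 248. Endoderm markers summed to 453, 380, 639 and 1110 TPM and endothelial markers to 69.1, 131, 448 and 184. In ESC the endoderm sum was mostly *Cdh1* (308 and 315 TPM) and *Epcam* (128 and 134), and the endothelial sum mostly *Pecam1* (43.2 and 47.0). The ESC epicardial sum was mostly *Wt1* (23.2 and 24.2 TPM), which fell 20.3-fold in MES. In CP the blood sum was mostly *Hbb-bh1* (2768 and 2914 TPM), *Hba-x* (1203 and 1024) and *Hbb-y* (638 and 701). Although the endoderm sum was lower in MES, 5 of 10 endoderm markers rose there and 1, *Epcam*, fell. Of all tested genes, 19.4% rose and 16.0% fell in MES. *Pecam1* fell 2.81-fold in MES. Of 8 blood markers, 5 rose and 1, *Tal1*, fell in CP, where 10.8% and 4.65% of all tested genes did. In CM against CP 7 of them fell and 1, *Ptprc*, rose, against 2.65% and 8.17%. Of the pluripotency markers, *Klf4*, *Tfcp2l1* and *Dppa5a* rose in CM over CP and *Pou5f1* fell 3.20-fold. Within the smooth muscle and fibroblast list, *Acta2* and *Cnn1* were called lower in CM than in CP, 2.25-fold and 2.67-fold. The part of these cell types in the results below was not tested.

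Most of the tested genes were called higher in MES than in ESC. By stage mean, the leading gene of the ligands, the Wnt-binding antagonists and the Dickkopf genes differed between MES and CM. That of each other class was the same. In CM the leading ligand was *Wnt2* in replicate 1 (47.1 TPM) and *Wnt9a* in replicate 2 (38.9 TPM). Of the 49 genes, 48 had a read in both replicates of a stage and 43 passed the filter on low counts. The 6 that did not, *Wnt1*, *Wnt3a*, *Wnt8b*, *Wnt16*, *Dkk4* and *Rspo4*, were also the 6 with no stage mean of at least 1 TPM, and *Dkk4* had 1 read in all libraries. In MES against ESC, 25 of the 43 tested genes rose and 4 fell, while 19.4% of all tested genes rose and 16.0% fell, and the median log2 fold change was 2.26 against 0.00 over all genes tested. In CP against MES, 6 rose and 15 fell, against a background of 10.8% and 4.65%, with a median of -0.26. In CM against CP, 7 rose and 7 fell, against 8.17% and 2.65%, with a median of -0.14. In CM against ESC, 29 rose and 7 fell, against 29.8% and 21.8%, with a median of 2.55 against 0.11 over all genes. The medians were the same with genes absent from ESC set at the lower bound of their fold. A gene that was low passed the filter only through the stages where it was high, so these counts cover the tested genes only. Successive comparisons share libraries, so the MES libraries enter both of the first ones and the CP libraries both of the next. The count of genes that rose in CM against CP was 4 without CP replicate 1, and the count that fell was 11 without CM replicate 2.

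**Figure D1:**
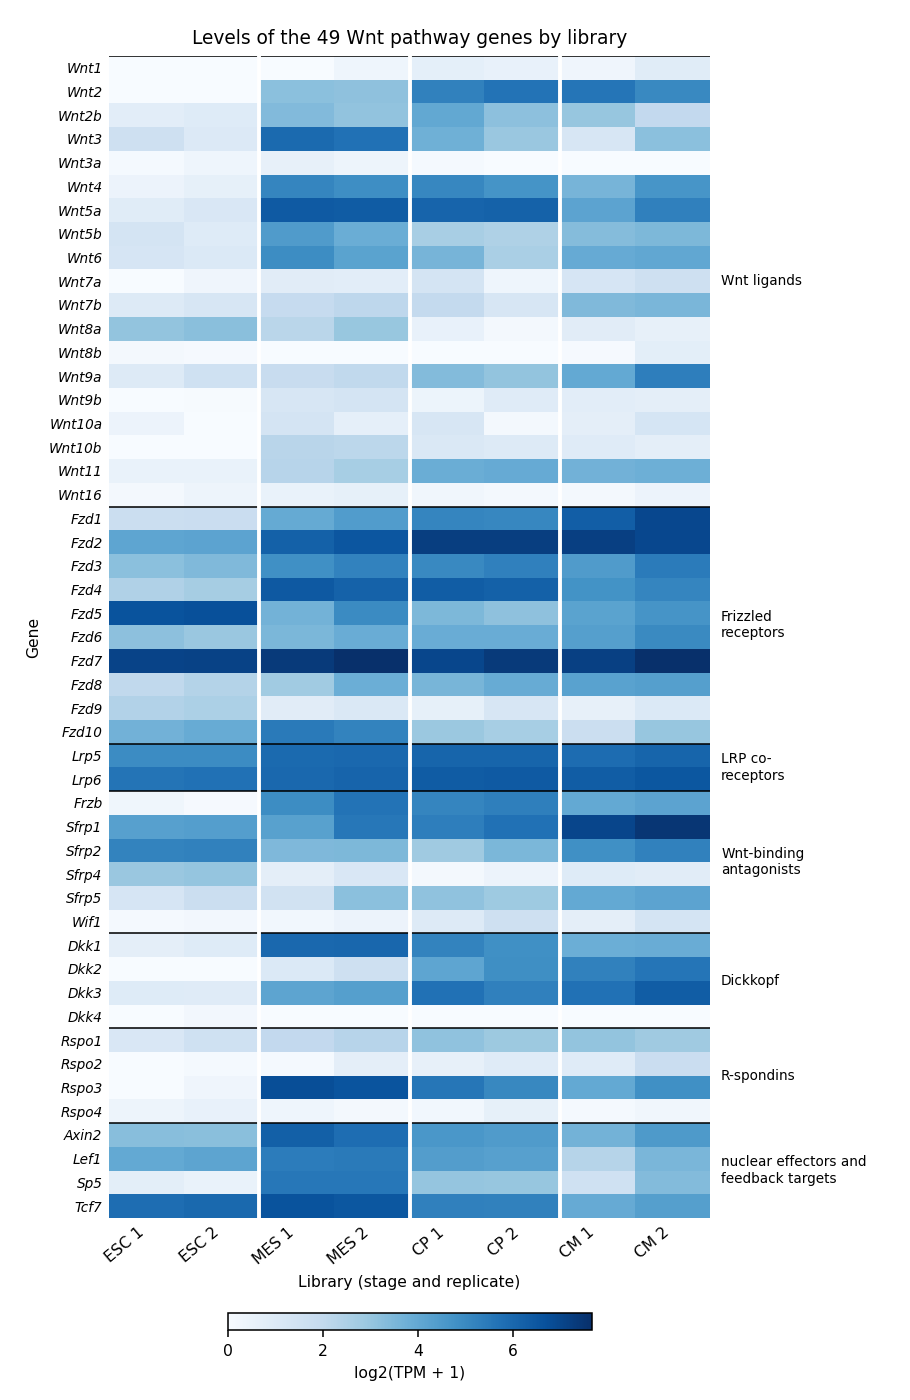
Levels of the 49 genes, as log2(TPM + 1), in each of the 8 libraries, with genes as rows grouped by role and libraries as columns. *Fzd5* is dark in ESC, *Wnt3*, *Wnt5a* and *Rspo3* are dark in MES, and *Fzd1* and *Sfrp1* are darkest in CM.

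**Figure D2:**
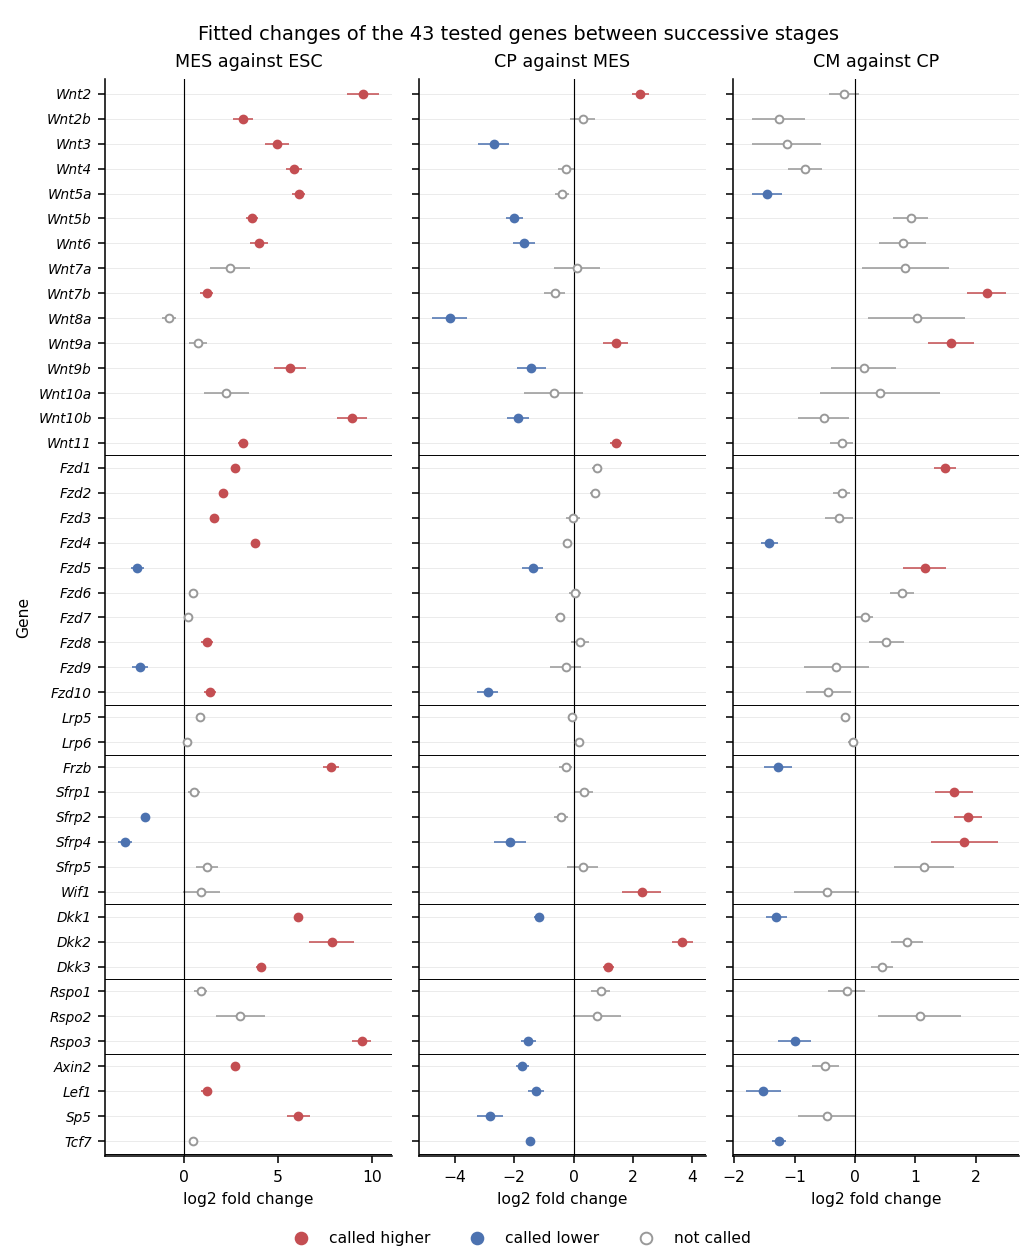
Fitted log2 fold change of the 43 tested genes in each comparison of successive stages, with horizontal bars of 1 SE and the same order of genes in each panel. Red points were called higher, blue points lower and open points not called, with 25 red points in MES against ESC and 15 blue points in CP against MES.

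The summed level of the 19 Wnt ligands was 17.2 and 18.7 TPM in the ESC replicates and 266 and 232 TPM in MES. It then was 213 and 195 TPM in CP and 148 and 200 TPM in CM, so ESC lay far below all other stages and the later stages overlapped in CP and CM. At least 1 TPM was reached by 7 ligands in ESC and 14 in MES, then 11 in CP and 12 in CM. Of the 15 ligands tested, 11 rose and none fell in MES, 3 rose and 6 fell in CP, and 2 rose and 1 fell in CM against CP. Of all tested genes, 19.4% rose and 16.0% fell in MES, then 10.8% and 4.65% in CP, and 8.17% and 2.65% in CM, so the ligands' counts in CM were near that background. The median log2 fold change of the tested ligands was 3.62 in MES against ESC, where that of all genes was 0.00.

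In ESC the leading ligand was *Wnt8a*, a ligand of the posterior epiblast and streak (ENSMUSG00000012282, chromosome 18, 34542313 to 34548273, GRCm38). It took 42.6% and 45% of the ligand TPM there. Its level was 7.32 and 8.41 TPM in ESC, 3.60 and 6.92 in MES, then 0.486 and 0.124 in CP, and 0.811 and 0.515 in CM. The ESC and MES values did not overlap but were not called apart (log2 fold change -0.79 ± 0.38, adjusted p = 0.0990, edgeR). In CP it fell 18.2-fold from MES (log2 fold change -4.18 ± 0.59, adjusted p = 0.000611), and only 5 counts were left in CP. The log2 fold change was -5.41 without CP replicate 1 and -3.52 without CP replicate 2, and both were called.

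In MES the leading ligands were *Wnt5a*, *Wnt3* and *Wnt4*. *Wnt5a*, which drives outgrowth of the body axis and limbs (ENSMUSG00000021994, chromosome 14, 28504750 to 28527448), was at 0.851 and 1.21 TPM in ESC, 84.1 and 80.0 in MES, then 68.0 and 70.8 in CP, and 16.8 and 37.8 in CM. It rose 68.8-fold in MES (log2 fold change 6.10 ± 0.34, adjusted p = 4.81e-07, edgeR) and took 31.6% and 34.4% of the ligand TPM. The level in CP was not called apart from MES, and in CM it fell 2.73-fold from CP (log2 fold change -1.45 ± 0.25, adjusted p = 0.00308). Without CM replicate 2 that log2 fold change was -2.04. In CM against ESC *Wnt5a* was 19.1-fold higher (log2 fold change 4.26 ± 0.34), or 3.67 on the log2 scale without CM replicate 2.

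*Wnt3* (ENSMUSG00000000125, chromosome 11, 103774150 to 103817957) rose less in MES than *Wnt5a* did, but fell in CP, where *Wnt5a* was not called. The level of *Wnt3* was 2.05 and 1.03 TPM in ESC, 59.8 and 52.0 in MES, then 12.5 and 6.75 in CP, and 1.38 and 8.25 in CM. It rose 31.2-fold in MES (log2 fold change 4.96 ± 0.63, adjusted p = 0.000112, edgeR), which was 5.56 on the log2 scale without ESC replicate 1, and fell 6.45-fold in CP (log2 fold change -2.69 ± 0.52, adjusted p = 0.00343). The CM libraries differed 5.97-fold, and CM overlapped both ESC and CP. *Wnt9b*, the neighbouring ligand gene on the other strand (103727364 to 103749821) and known for its role in the kidney, had 1 count in ESC and 62 in MES, a ratio of 61.2 with a 95% counting interval from 10.6 to 2455. It stayed low, with 0.0 and 0.0412 TPM in ESC, 1.30 and 1.57 in MES, then 0.329 and 0.862 in CP, and 0.716 and 0.646 in CM. Its fall in CP (log2 fold change -1.42 ± 0.50, adjusted p = 0.0485) just passed the threshold and was lost under DESeq2 (adjusted p = 0.248) and under most other settings, among them leaving out CP replicate 1 (log2 fold change -0.91), MES replicate 1 (-1.50), MES replicate 2 (-1.31) or either ESC replicate (-1.4). Without CP replicate 2 it was -2.23 and called. The fitted rise in MES was 4.77 on the log2 scale without ESC replicate 1, and that of CM over ESC was 4.35 with all libraries and 3.5 without ESC replicate 1. ESC replicate 1 had 0 counts, so no exact fold can be given without ESC replicate 2.

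*Wnt4*, known for kidney and gonad development, rose 58.2-fold in MES (log2 fold change 5.86 ± 0.42, adjusted p = 2.51e-06, edgeR). Its level was 0.343 and 0.576 TPM in ESC, 34.0 and 28.3 in MES, then 32.9 and 25 in CP, and 11.0 and 24.0 in CM. MES and CP overlapped and were not called apart, and CM was the lowest of the later stages. *Wnt2b* was lower, with 0.728 and 0.930 TPM in ESC, 9.38 and 7.49 in MES, then 15.2 and 8.03 in CP, and 7.03 and 2.99 in CM. It rose 8.78-fold in MES (log2 fold change 3.13 ± 0.53, adjusted p = 0.000667), and the log2 difference of CM from ESC was 2.19, or 1.32 without CM replicate 1.

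*Wnt5b*, *Wnt6* and *Wnt10b* were highest in MES and lower in CP. *Wnt5b*, known for its role in cartilage, was at 1.49 and 0.911 TPM in ESC, 20.8 and 13.4 in MES, then 5.12 and 4.48 in CP, and 8.99 and 10.2 in CM. It rose 12.3-fold in MES (log2 fold change 3.62 ± 0.34) and fell 3.99-fold in CP (-2.0 ± 0.29, adjusted p = 0.000755, edgeR), and no value of a stage overlapped another stage. *Wnt6*, a ligand of epithelia, was at 1.4 and 1.10 TPM in ESC, 28.9 and 17.2 in MES, then 11.2 and 4.93 in CP, and 14.1 and 15.6 in CM. It rose 15.9-fold in MES (log2 fold change 3.99 ± 0.47) and fell 3.17-fold in CP (-1.67 ± 0.38, adjusted p = 0.00807), a call lost without MES replicate 1 (-1.18) or CP replicate 2 (-1.17) and stronger without CP replicate 1 (-2.41). *Wnt10b*, a ligand that favours bone over fat, had no count in ESC and rose at least 37.8-fold in MES, against a floor of 3 counts over the stage. Its level was 0.0 in both ESC libraries, 3.63 and 3.43 TPM in MES, then 1.19 and 0.954 in CP, and 0.892 and 0.660 in CM, and it fell 3.66-fold in CP (-1.87 ± 0.36, adjusted p = 0.00427).

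*Wnt2* and *Wnt11* rose in MES and again in CP. *Wnt2*, which is expressed in the early heart and lung of the mouse embryo (ENSMUSG00000010797, chromosome 6, 17988940 to 18030585), had no count in ESC. Its level was 0.0 in both ESC libraries, 8.27 and 7.95 TPM in MES, then 37.0 and 49.1 in CP, and 47.1 and 31.5 in CM. It rose at least 57.6-fold in MES, a further 4.74-fold in CP (log2 fold change 2.25 ± 0.28, adjusted p = 0.000459, edgeR), and its CM level was at least 241-fold above ESC. CP and CM overlapped. *Wnt11*, needed for the outflow tract of the mouse heart, was at 0.435 and 0.449 TPM in ESC, 3.75 and 5.29 in MES, then 13.2 and 14.2 in CP, and 11.9 and 12.8 in CM. It rose 8.72-fold in MES (log2 fold change 3.12 ± 0.27) and 2.72-fold in CP (1.44 ± 0.20, adjusted p = 0.000524), and its CM and CP values were close.

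*Wnt9a*, known for its role in joints, had its highest level in CM, but the CM libraries differed 2.60-fold. It was at 0.973 and 1.90 TPM in ESC, 2.52 and 3.07 in MES, then 9.31 and 7.28 in CP, and 14.9 and 38.9 in CM, with no overlap between stages. The rise in CP (log2 fold change 1.42 ± 0.43, adjusted p = 0.0270, edgeR) was lost when MES replicate 1 (1.33), MES replicate 2 (1.53), CP replicate 1 (1.20) or CP replicate 2 (1.60) was left out. The rise in CM over CP (1.59 ± 0.38, adjusted p = 0.0143) was lost without CP replicate 1 (1.79), CP replicate 2 (1.39) or CM replicate 2 (0.86), and with only the libraries of these stages (adjusted p = 0.0513). In CM against ESC *Wnt9a* was 13.5-fold higher (3.75 ± 0.45, adjusted p = 4.24e-05), or 3.03 on the log2 scale without CM replicate 2. *Wnt7b*, needed for the placenta and lung, was at 0.955 and 1.29 TPM in ESC, 2.70 and 3.28 in MES, then 2.86 and 1.37 in CP, and 9.66 and 10.7 in CM. It rose 4.54-fold in CM over CP (log2 fold change 2.18 ± 0.32, adjusted p = 0.00151), or 2.83 without CP replicate 1. Its smaller rise in MES (1.20 ± 0.36) was lost without ESC replicate 1 (1.01) or MES replicate 2 (1.09).

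*Wnt7a*, which patterns the limb, stayed low. It was at 0.0 and 0.234 TPM in ESC, 0.793 and 0.723 in MES, then 1.54 and 0.273 in CP, and 1.4 and 2.05 in CM. It was called only in CM against ESC (log2 fold change 3.38 ± 0.98, adjusted p = 0.0108, edgeR), a call lost without ESC replicate 1 (2.43). It was kept without ESC replicate 2, but the ESC library left had 0 counts, so no exact fold can be given. The log2 change of *Wnt7a* in MES was 2.44 and not called with all libraries. It was called with only the libraries of these stages (2.45, adjusted p = 0.0147, edgeR), and without CP replicate 1, CP replicate 2 (2.44 each) or ESC replicate 2. *Wnt10a* was tested and called in no comparison.

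**Figure D3:**
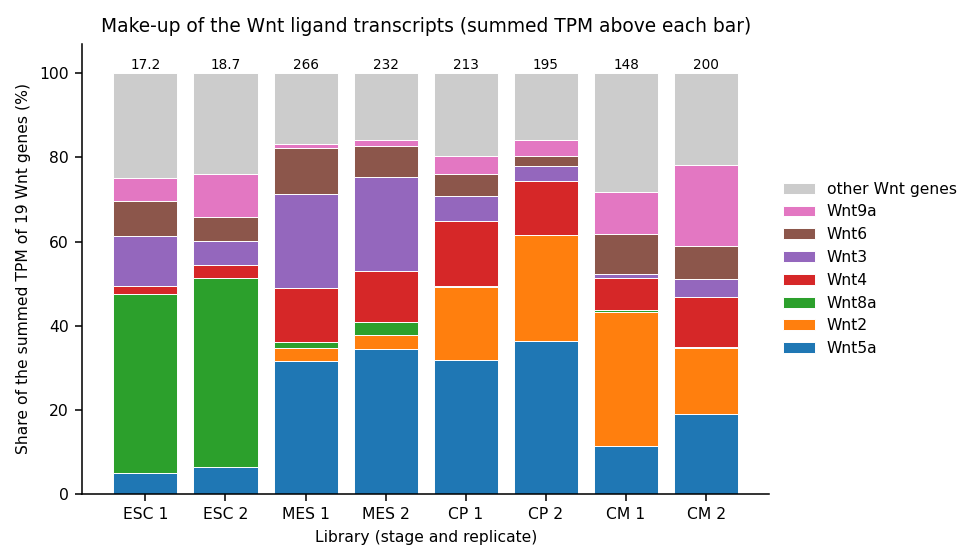
Share of the summed TPM of the 19 Wnt ligand genes taken by each ligand (vertical axis, percent) in each library (horizontal axis), with the sum in TPM above the bar. Ligands with at least 10% in a library have a colour. *Wnt8a* fills 42.6% and 45% of the ESC bars, *Wnt5a* and *Wnt3* have the largest shares in the MES bars, and *Wnt2* fills 31.8% and 15.7% of the CM bars.

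The make-up of the ligands thus differed between stages, and in CM also between the replicates. *Wnt2* took 31.8% of the ligand TPM in CM replicate 1 but 15.7% in the other, and *Wnt9a* took 10.1% and 19.5%. *Wnt5a* took 31.9% and 36.4% in CP and 11.3% and 18.9% in CM. *Wnt3* took 22.5% and 22.4% in MES, then 5.86% and 3.47% in CP, and 0.934% and 4.13% in CM.

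Among the 10 Frizzled genes, which encode the receptors for Wnt proteins, the summed level was 288 and 303 TPM in ESC, 431 and 507 in MES, then 458 and 494 in CP, and 464 and 601 in CM. In MES 6 rose and 2 fell, in CP none rose and 2 fell, and in CM against CP 2 rose and 1 fell. Against the shares of all genes (19.4% and 16.0%, 10.8% and 4.65%, 8.17% and 2.65%), the 2 that fell in MES were near the background. *Fzd7*, the receptor best known from pluripotent stem cells (ENSMUSG00000041075, chromosome 1, 59482424 to 59486955), was called in no comparison. By stage mean it was the most abundant Frizzled in ESC, MES and CM, and in CP it was close behind *Fzd2* (143 against 148 TPM). The level of *Fzd7* was 133 and 135 TPM in ESC, 160 and 196 in MES, then 125 and 161 in CP, and 140 and 199 in CM. The later stages overlapped each other, and the log2 difference of CM from ESC was -0.11 ± 0.14 under TMM scaling, where the TPM mean was higher in CM.

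*Fzd5*, needed for the yolk sac and eye of the mouse (ENSMUSG00000045005, chromosome 1, 64730558 to 64737751), had the largest fitted fall among the Frizzled genes in MES. It was at 97.7 and 104 TPM in ESC, 11.5 and 30.6 in MES, then 10.1 and 7.79 in CP, and 17.5 and 24.4 in CM. It fell 5.61-fold in MES (log2 fold change -2.49 ± 0.34, adjusted p = 0.000178, edgeR), or -3.31 on the log2 scale without MES replicate 2. The MES replicates differed, and the further fall in CP (-1.38 ± 0.35, adjusted p = 0.0134) was lost without MES replicate 2 (-0.55) or CP replicate 2 (-1.18). The rise in CM over CP (1.15 ± 0.35, adjusted p = 0.0404) was lost without either ESC replicate (1.14 each), CP replicate 1 (1.36), CP replicate 2 (0.94) or CM replicate 2 (0.98), under DESeq2 (1.13, adjusted p = 0.0729) and under limma (adjusted p = 0.0795). *Fzd9* also fell in MES, 5.12-fold (-2.36 ± 0.43, adjusted p = 0.00120), from 4.16 and 4.78 TPM in ESC to 0.822 and 1.18 in MES. It stayed there, with 0.555 and 1.32 TPM in CP and 0.529 and 1.08 in CM.

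*Fzd4*, the receptor for Norrin as well as Wnt proteins in the vessels of the retina (ENSMUSG00000049791, chromosome 7, 89404355 to 89413134), rose most in MES. Its level was 4.44 and 5.42 TPM in ESC, 85.2 and 70.5 in MES, then 78.3 and 71.9 in CP, and 25.8 and 33.5 in CM. It rose 13.7-fold in MES (log2 fold change 3.77 ± 0.16, adjusted p = 8.47e-08, edgeR), did not differ by call in CP, and fell 2.68-fold in CM (-1.42 ± 0.14, adjusted p = 0.000203). *Fzd10* was at 11.8 and 13.8 TPM in ESC, 42.8 and 35.3 in MES, then 6.46 and 5.26 in CP, and 2.30 and 7.05 in CM. It rose 2.64-fold in MES (1.4 ± 0.32, adjusted p = 0.00418) and fell 7.42-fold in CP (-2.89 ± 0.35, adjusted p = 0.000265), below its level in ESC. In CM it was lower than in ESC by a log2 difference of -1.93, or -2.82 without CM replicate 2.

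*Fzd1* and *Fzd2* were lowest in ESC and rose in MES. *Fzd1* (ENSMUSG00000044674, chromosome 5, 4753839 to 4758035) was at 2.19 and 2.35 TPM in ESC, 14.6 and 20.2 in MES, then 33.7 and 33.0 in CP, and 76.6 and 123 in CM, so no stage overlapped another. It rose 6.60-fold in MES (log2 fold change 2.72 ± 0.23), 1.72-fold in CP without a call, and 2.82-fold in CM over CP (1.49 ± 0.18, adjusted p = 0.000499, edgeR). *Fzd2* was at 16.1 and 16.9 TPM in ESC, 72.1 and 90.2 in MES, then 147 and 148 in CP, and 144 and 121 in CM. It rose 4.25-fold in MES (2.09 ± 0.15, adjusted p = 2.69e-06), and CP and CM were not called apart.

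The polarity receptors *Fzd3* and *Fzd6*, and *Fzd8*, changed less. *Fzd3* was at 8.23 and 9.74 TPM in ESC, 27.1 and 35.9 in MES, then 31.9 and 37.3 in CP, and 20.5 and 41.5 in CM, and rose 3.02-fold in MES (log2 fold change 1.60 ± 0.24, adjusted p = 0.000347, edgeR). Its call in CM against ESC (1.32) was lost without CM replicate 2 (0.84). *Fzd6* was at 8.03 and 6.75 TPM in ESC, 10.3 and 13.5 in MES, 13.7 in both CP libraries, and 18.7 and 31.3 in CM, and its only call, in CM against ESC (1.30 ± 0.21), was lost without CM replicate 2 (0.98). *Fzd8* was at 3.01 and 4.05 TPM in ESC, 5.86 and 13.1 in MES, then 10.8 and 13.8 in CP, and 17.8 and 19.1 in CM. Its rise in MES (1.21 ± 0.32, adjusted p = 0.00877) was lost without ESC replicate 1 (1.02) or MES replicate 2 (0.56), whereas that in CM against ESC was 3.86-fold (1.95 ± 0.32, adjusted p = 0.000345).

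The co-receptors *Lrp5* and *Lrp6*, which bind Wnt together with a Frizzled and recruit Axin, were called in no comparison. *Lrp5* ranged from 29.5 to 29.7 TPM in ESC and from 56.8 to 66.4 TPM in the 6 later libraries. Its log2 change in MES was 0.84 ± 0.08 (adjusted p = 1.11e-05, edgeR), a fold of 1.79 and so under the threshold of 2. Only under limma on log2(TPM + 1) was *Lrp5* called, higher in MES (1.02) and in CM (1.03) than in ESC. *Lrp6* was at 48.1 and 51.3 TPM in ESC and at 79.0 and 88.8 TPM in CM, with a log2 difference of 0.31 ± 0.07.

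Antagonists that bind Wnt proteins outside the cell summed to 62.2 and 66.2 TPM in ESC, 59.5 and 115 in MES, then 87.9 and 109 in CP, and 185 and 246 in CM, so only CM stood clear of the other stages. *Sfrp1* (ENSMUSG00000031548, chromosome 8, 23411502 to 23449632) carried most of this. Its level was 18.6 and 19.5 TPM in ESC, 18.2 and 45.5 in MES, then 39.1 and 51.3 in CP, and 126 and 173 in CM. It rose 3.13-fold in CM over CP (log2 fold change 1.64 ± 0.31, adjusted p = 0.00459, edgeR), a call lost without CP replicate 1 (1.47, adjusted p = 0.0559), and was 5.74-fold higher in CM than in ESC (2.52 ± 0.32, adjusted p = 6.84e-05).

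*Sfrp2* and *Sfrp4* fell when cells left the ESC state and rose again in CM. *Sfrp2* was at 35.3 and 37.0 TPM in ESC, 9.83 and 10.2 in MES, then 6.11 and 10.4 in CP, and 27.1 and 36.9 in CM. It fell 4.18-fold in MES (log2 fold change -2.06 ± 0.22, adjusted p = 3.84e-05, edgeR) and rose 3.66-fold in CM over CP (1.87 ± 0.23, adjusted p = 0.000575), so that CM overlapped ESC. *Sfrp4* was at 6.67 and 7.25 TPM in ESC, 0.652 and 1.20 in MES, then 0.102 and 0.362 in CP, and 0.920 and 0.806 in CM. Its fall in MES was 8.69-fold (-3.12 ± 0.37, adjusted p = 7.06e-05). The further fall in CP (-2.13) was lost without MES replicate 2 (-1.66) or CP replicate 1 (-1.51) and was -3.23 without CP replicate 2. Its rise in CM over CP (1.81) was lost without ESC replicate 1 or ESC replicate 2 (1.81 each), CP replicate 1 (1.19) or CM replicate 1 (1.61), with only the libraries of these stages (adjusted p = 0.103, edgeR) and under limma, and was 2.91 without CP replicate 2.

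*Frzb*, also called Sfrp3, differed from its relatives. It was at 0.222 and 0.0574 TPM in ESC, 28.9 and 49.8 in MES, then 34.0 and 38.4 in CP, and 14.8 and 16.8 in CM. It rose 229-fold in MES (log2 fold change 7.84 ± 0.42, adjusted p = 3.58e-07, edgeR) from 5 counts in ESC, or 9.05 and 7.19 on the log2 scale without ESC replicate 1 or 2. In CM it fell 2.41-fold from CP (-1.27 ± 0.23, adjusted p = 0.00407), and its log2 difference from ESC was 6.30, or 7.53 and 5.67 without ESC replicate 1 or 2. *Sfrp5*, which marks a set of heart progenitors in the mouse embryo, was at 1.42 and 2.25 TPM in ESC, 1.76 and 8.33 in MES, then 7.71 and 6.15 in CP, and 15.0 and 17.1 in CM. Its only call with all 8 libraries was in CM against ESC, 6.43-fold (2.68 ± 0.56, adjusted p = 0.00172). With only the CP and CM libraries it was also called higher in CM than in CP (1.17, adjusted p = 0.0310, edgeR). Leaving out a MES library also gave calls, in MES without MES replicate 1 (1.94) and in CP without MES replicate 2 (1.78). Without MES replicate 1 or 2 it was called higher in CM than in CP (1.13 and 1.12).

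*Wif1*, another secreted inhibitor, stayed low throughout. It was at 0.0741 and 0.153 TPM in ESC, 0.173 and 0.343 in MES, then 0.962 and 1.96 in CP, and 0.667 and 1.57 in CM. Its rise in CP (log2 fold change 2.29 ± 0.67, adjusted p = 0.0246, edgeR) was lost under DESeq2 (adjusted p = 0.133) and without MES replicate 1 (1.95), MES replicate 2 (2.82) or CP replicate 2 (1.73). Its call in CM against ESC was lost under DESeq2 (adjusted p = 0.0685) and without ESC replicate 1 (2.36) or CM replicate 2 (2.12), and the ratio of 25 to 3 counts was 7.16, with a 95% counting interval from 2.18 to 37.1.

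As a sum, the Dickkopf genes, whose best known products block Lrp5 and Lrp6, went from nearly absent to abundant, but *Dkk4* had 1 read over all libraries. Their sum was 1.58 and 1.95 TPM in ESC, 79.9 and 85.1 in MES, then 103 and 92.7 in CP, and 102 and 139 in CM. *Dkk1*, an inhibitor that promotes head and heart formation (ENSMUSG00000024868, chromosome 19, 30545863 to 30549665), came first. Its level was 0.667 and 0.919 TPM in ESC, 62.3 and 64.0 in MES, then 35.1 and 27.0 in CP, and 13 and 13.5 in CM. It rose 68.2-fold in MES (log2 fold change 6.09 ± 0.24, adjusted p = 6.55e-08, edgeR), fell 2.26-fold in CP (-1.18 ± 0.16, adjusted p = 0.000582) and 2.46-fold in CM (-1.30 ± 0.17, adjusted p = 0.000902), and no stage overlapped another. The fall in CP was -0.98 and no longer called without CP replicate 2.

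*Dkk2* and *Dkk3* rose in MES and again in CP. *Dkk2*, which also binds LRP co-receptors (ENSMUSG00000028031, chromosome 3, 132085292 to 132180304), had no count in ESC, and its level was 1.07 and 2.02 TPM in MES, then 16.3 and 28.1 in CP, and 37.0 and 47.7 in CM. It rose at least 18.1-fold in MES and 12.8-fold in CP (log2 fold change 3.67 ± 0.34, adjusted p = 0.000104, edgeR), and its CM level was at least 419-fold above ESC. *Dkk3*, a divergent member of the family, was at 0.910 and 0.886 TPM in ESC, 16.5 and 19.1 in MES, then 51.5 and 37.6 in CP, and 51.7 and 78 in CM. It rose 17.0-fold in MES (4.09 ± 0.28, adjusted p = 1.76e-06) and 2.25-fold in CP (1.17 ± 0.19, adjusted p = 0.00143), the latter no longer called without CP replicate 1 (0.90). Thus *Dkk1* was 76.6% ± 2.03 (SD, n = 2) of the Dickkopf TPM in MES and 11.3% ± 2.18 in CM.

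R-spondins amplify Wnt signals by keeping Frizzled receptors at the cell surface, and *Rspo3* made up most of their transcripts after ESC. *Rspo3* (ENSMUSG00000019880, chromosome 10, 29452416 to 29535867) was at 0.0 and 0.241 TPM in ESC, 108 and 95.5 in MES, then 46.5 and 32.7 in CP, and 15.0 and 27.3 in CM, with no overlap between stages. It rose 702-fold in MES (log2 fold change 9.46 ± 0.51, adjusted p = 3.93e-07, edgeR) from 4 counts in ESC to 3007, or 8.48 on the log2 scale without ESC replicate 1. No exact fold can be given without ESC replicate 2, since the other ESC library had 0 counts of this gene. It fell 2.86-fold in CP (-1.52 ± 0.26, adjusted p = 0.00181). Its fall in CM (-1.0 ± 0.27, adjusted p = 0.0236) lay at the fold threshold and was lost without CP replicate 1 or CM replicate 1 (-0.71 each), with library totals (-0.92), with the replicate block (-1.0), with only the libraries of these stages (-0.97) and under limma (-0.91). The log2 difference of CM from ESC was 6.94, or 5.98 without ESC replicate 1.

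*Rspo1* was at 1.21 and 1.92 TPM in ESC, 2.92 and 3.76 in MES, then 7.67 and 6.36 in CP, and 7.31 and 6.03 in CM, and its only call was in CM against ESC, 3.16-fold (log2 fold change 1.66 ± 0.35, adjusted p = 0.00174, edgeR). *Rspo2* was at 0.0 and 0.0727 TPM in ESC, 0.0820 and 0.652 in MES, then 0.540 and 0.888 in CP, and 0.871 and 2.37 in CM. It was called in CM against ESC (4.87), where 76 counts stood against 2, a ratio of 32.7 with a 95% counting interval from 8.73 to 275. Its log2 difference was 3.96 without ESC replicate 1 and 4.10 without CM replicate 2, and ESC replicate 1 had 0 counts, so no exact fold can be given without ESC replicate 2.

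The nuclear effectors and feedback targets were highest in MES, with sums of 79.8 and 86.0 TPM in ESC, 255 and 234 in MES, then 88.1 and 83.0 in CP, and 31.6 and 60.3 in CM. Of the 4 genes, 3 rose in MES and all 4 fell in CP, where 19.4% of all tested genes rose in MES and 4.65% fell in CP. *Axin2*, a scaffold of the destruction complex that beta-catenin induces (ENSMUSG00000000142, chromosome 11, 108920349 to 108950783), was at 8.56 and 8.41 TPM in ESC, 73.1 and 56.3 in MES, then 23.1 and 20.5 in CP, and 11.5 and 21.5 in CM. It rose 6.60-fold in MES (log2 fold change 2.72 ± 0.23, adjusted p = 7.89e-06, edgeR) and fell 3.32-fold in CP (-1.73 ± 0.22, adjusted p = 0.000354). *Sp5*, a zinc finger factor and target of beta-catenin (ENSMUSG00000075304, chromosome 2, 70474923 to 70477729), was at 0.685 and 0.443 TPM in ESC, 45.1 and 45.5 in MES, then 7.18 and 7.0 in CP, and 1.93 and 9.20 in CM. It rose 68.0-fold in MES (6.09 ± 0.60, adjusted p = 2.00e-05) and fell 7.12-fold in CP (-2.83 ± 0.44, adjusted p = 0.00108). The CM libraries differed 4.77-fold, and the log2 difference of CM from ESC (2.78) was 3.47 without CM replicate 1 and 1.4 without CM replicate 2.

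*Tcf7* and *Lef1* encode DNA-binding partners of beta-catenin. *Tcf7* (ENSMUSG00000000782, chromosome 11, 52252371 to 52283014) was at 55.7 and 60.7 TPM in ESC, 96.5 and 89.4 in MES, then 37.9 and 37.0 in CP, and 14.2 and 19 in CM, with no overlap between stages. Its log2 change in MES, 0.47 ± 0.11, was under the threshold, and it fell 2.77-fold in CP (-1.47 ± 0.12, adjusted p = 2.99e-05, edgeR) and 2.39-fold in CM (-1.26 ± 0.12, adjusted p = 0.000211). *Lef1* (ENSMUSG00000027985, chromosome 3, 131110471 to 131224356) was at 14.9 and 16.4 TPM in ESC, 40.5 and 42.9 in MES, then 19.9 and 18.5 in CP, and 3.91 and 10.6 in CM. It rose 2.30-fold in MES (1.20 ± 0.28, adjusted p = 0.00427) and fell 2.42-fold in CP (-1.27 ± 0.28, adjusted p = 0.00603), no longer called without CP replicate 2 (-1.19). It fell a further 2.86-fold in CM (-1.52 ± 0.29, adjusted p = 0.00520), to below its level in ESC (-1.59), and these values were -2.29 and -2.35 without CM replicate 2. The fall in CM from CP was lost when only the libraries of these stages were fitted (-1.48, adjusted p = 0.0521, edgeR).

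**Figure D4:**
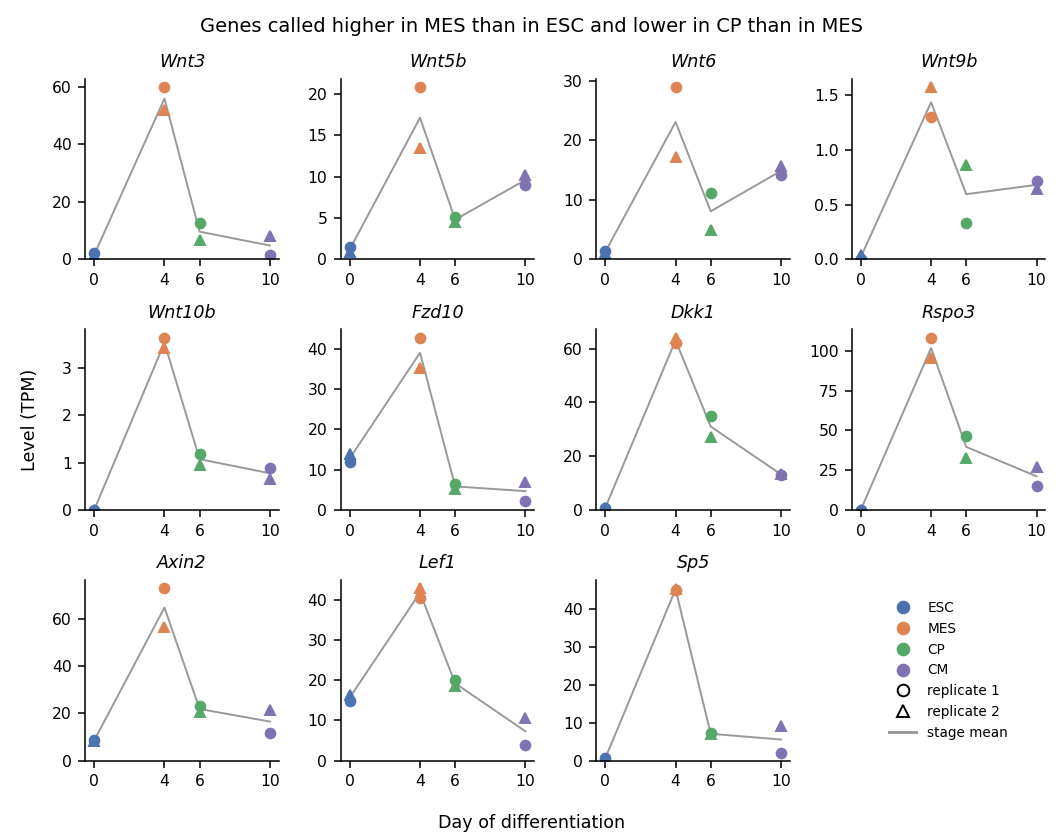
Level in TPM (vertical axes, each from 0) by day of differentiation (horizontal axes) of 11 genes called higher in MES than in ESC and lower in CP than in MES, with a point per library and a line through the stage means. The genes were chosen by these calls, which share the MES libraries, and each has its highest points at day 4, such as 45.1 and 45.5 TPM for *Sp5*.

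Other genes of the pathway, 70 in all and outside the 49, were compared in the same way. Of the 68 tested, 32 rose and 5 fell in MES, 8 rose and 13 fell in CP, and 3 rose and 3 fell in CM against CP. Of all tested genes, 19.4% rose and 16.0% fell in MES, then 10.8% and 4.65% in CP, and 8.17% and 2.65% in CM, so the number that rose in CP was near the background. Among 4 genes for ligand modification and secretion, *Wls*, which carries Wnt proteins to the cell surface, was at 5.01 and 5.08 TPM in ESC and 117 and 116 in MES, a rise of 19.9-fold (log2 fold change 4.32 ± 0.11, adjusted p = 9.99e-09, edgeR). *Trabd2b*, a membrane protease that cleaves Wnt proteins, rose 32.1-fold. *Porcn*, the enzyme that adds the lipid, fell 2.09-fold, and *Notum*, the enzyme that removes it, fell 4.32-fold.

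Of 14 tested genes for receptor turnover and other surface modulation, 7 rose and 1 fell in MES, and 2 rose and 4 fell in CP, where 19.4% and 16.0% of all genes did in MES and 10.8% and 4.65% in CP. The 1 that fell in MES and the 2 that rose in CP were near or below that background. *Lgr5*, an R-spondin receptor, was at 0.0175 and 0.0181 TPM in ESC, 15.1 and 13.3 in MES, then 1.76 and 1.54 in CP, and 1.62 and 2.93 in CM, so it was highest in MES, as *Rspo3* was, and was 9.59-fold lower in CP (log2 fold change -3.26 ± 0.24, adjusted p = 2.03e-05, edgeR). The other R-spondin receptors did not share this pattern. *Lgr4* was more abundant and highest in ESC, at 124 and 131 TPM there and 77.7 and 81.2 in MES. *Lgr6* stayed low and was the 1 gene that fell in MES, from 0.551 and 0.461 TPM in ESC to 0.245 and 0.335. *Apcdd1*, a membrane inhibitor of Wnt signals, rose 24.9-fold in MES and fell 2.44-fold in CP. *Gpc3*, a glypican, rose 23.2-fold in MES and was called in neither of the next comparisons. In CM against CP, *Dkkl1*, a relative of *Dkk3* best known from the testis, rose 10-fold, from 2.83 and 2.06 TPM in CP to 31.7 and 19.4 in CM.

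The destruction complex and Dishevelled list had 1 of 12 genes called in MES, *Amer1* (3.48-fold higher). This was below the share of all tested genes, of which 19.4% rose and 16.0% fell. Beta-catenin itself, *Ctnnb1*, named as the centre of the pathway and not by a call, was at 500 and 512 TPM in ESC and 603 and 647 in MES, and its log2 change was 0.09 ± 0.08. Of 11 nuclear partners of beta-catenin, 5 rose and 1 fell in MES, where 19.4% of all genes rose and 16.0% fell. Those with the smallest adjusted p were *Bcl9l*, a co-activator that rose 5.15-fold, *Tle3*, a co-repressor that rose 2.19-fold, and *Tle4*, a co-repressor that fell 4.46-fold.

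Known targets of Wnt signals in the streak and feedback regulators formed another list. Of 12 tested, 8 rose and none fell in MES, where 19.4% of all genes rose and 16.0% fell, and none rose and 9 fell in CP, where 10.8% rose and 4.65% fell. *Mixl1*, a homeobox factor of the streak, was at 1.25 and 1.22 TPM in ESC, 116 and 110 in MES, then 3.05 and 1.70 in CP, and 0.265 and 1.17 in CM. It rose 78.4-fold and fell 52.6-fold (log2 fold changes 6.29 ± 0.32 and -5.72 ± 0.30, adjusted p = 2.74e-07 and 4.25e-06, edgeR). *Cdx2*, a factor of the posterior body, rose 74.2-fold and fell 3.85-fold. *Myc* and *Ccnd1*, which drive growth and the cell cycle and respond to many signals, had log2 changes of 0.92 and 0.66 in MES, under the threshold, and fell 3.78-fold and 3.72-fold in CP. The summed mesoderm markers, of which 7 of 8 rose in MES and 5 of 8 fell in CP, moved with these genes, and their part in the counts was not tested.

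The last list held genes of planar polarity and signalling without beta-catenin. Of 15 tested, 9 rose and 1 fell in MES, 3 rose and none fell in CP, and none rose and 1 fell in CM against CP. The shares of all genes were 19.4% and 16.0%, 10.8% and 4.65%, and 8.17% and 2.65%, and the counts in CP and CM were near them. *Daam2*, a formin that binds Dishevelled, was at 0.0368 and 0.0761 TPM in ESC, 14.6 and 15.9 in MES, then 51.0 and 48.1 in CP, and 51.6 and 53.6 in CM. *Prickle1* rose 7.50-fold and *Daam1* 4.92-fold in MES, and *Celsr3*, an atypical cadherin, fell 4.69-fold. The kinase receptors *Ror1* and *Ror2* bind Wnt5a. *Ror1* was at 1.53 and 1.58 TPM in ESC, 7.82 and 13.9 in MES, then 35.4 and 38.2 in CP, and 22.9 and 28.1 in CM, and *Ror2* rose 2.62-fold in MES. The *Ror* genes were singled out after their values were seen.

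The CM libraries differed from each other for many of these genes. Of 38 pathway genes with a mean of at least 1 TPM in CM, 34 were higher in CM replicate 2, as were 63.7% of 14087 protein-coding genes at that level. A difference over 1.5 times was seen for 16 genes toward replicate 2, and for 1 gene, *Wnt2b*, toward replicate 1, while 12.7% and 6.22% of the protein-coding genes passed that limit. The largest were *Wnt3* (5.97-fold), *Sp5* (4.77-fold), *Fzd10* (3.06-fold), *Rspo2* (2.73-fold) and *Lef1* (2.70-fold). Between the same libraries, summed cardiac muscle markers were at 486 and 1003 TPM, and smooth muscle and fibroblast markers at 16523 and 10520. Epicardial markers were at 358 and 137, endoderm markers at 914 and 1306, and neural markers at 54.8 and 106. Not every gene moved with the sum of its list. *Col1a1* was at 8155 and 4539 TPM, but *Acta2* was at 1398 and 1474, *Tagln* at 371 and 577 and *Cnn1* at 4.51 and 15.7. Among epicardial markers, *Upk3b* was at 168 and 37.8 TPM, but *Tcf21* was at 20.2 and 24.7. The part of the marked cell types in the differences was not tested. Without CM replicate 2, *Wnt3* (log2 fold change -2.79), *Sp5* (-1.86), *Wnt4* (-1.38) and *Fzd10* (-1.34) were called lower in CM than in CP, which they were not with both libraries. Without CM replicate 1, *Wnt2b* was called lower in CM than in CP (-2.13), *Fzd6* higher in CM than in CP (1.03), and *Wnt3* higher in CM than in ESC (1.88).

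**Figure D5:**
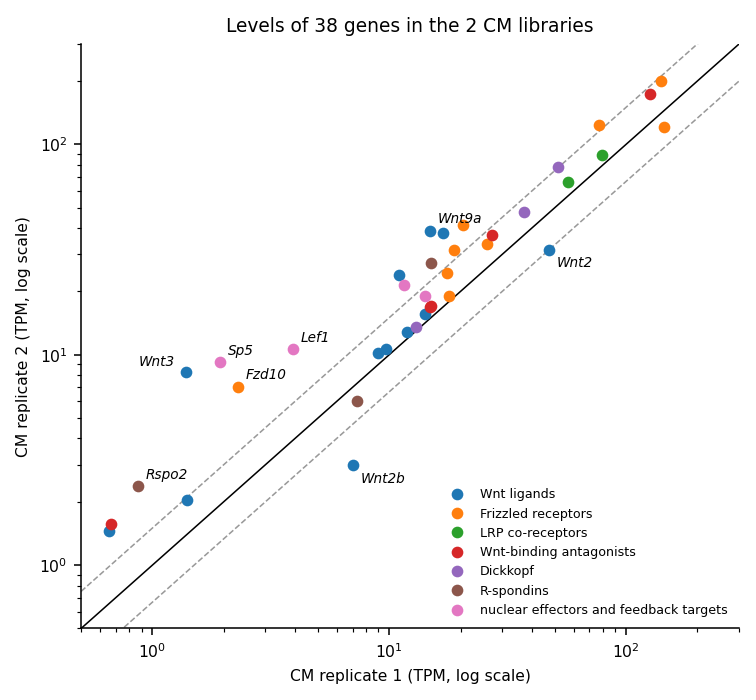
Level of 38 genes with a mean of at least 1 TPM in CM replicate 1 (horizontal axis) and CM replicate 2 (vertical axis), both in TPM on log scales and coloured by role. The solid line marks equal levels and the dashed lines a 1.5-fold difference. *Wnt3* and *Sp5* lie farthest above the line, at 1.38 against 8.25 and 1.93 against 9.20 TPM, and *Wnt2b* lies farthest below it.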

How the data were processed

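RNA depleted of ribosomal RNA was sequenced from both ends with strand kept in 8 libraries, 2 biological replicates for each of 4 stages. Per the submitters' processing notes, reads were trimmed (Trim Galore 0.6.6), aligned to GRCm38 (HISAT2 2.2.1) and counted by strand (featureCounts 2.0.1), and the authors' comparisons used DESeq2 1.34.0. Counting by strand keeps antisense neighbours apart. The authors deposited raw counts per gene, and TPM, the length-corrected count scaled to 1 sum per library. TPM recomputed from the deposited counts lay within 0.0001 of the deposited values.

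Counts were fitted with edgeR 4.0.16 (R 4.3.3), with TMM scaling, edgeR's filter by stage, a term per stage and all 8 libraries. The Benjamini-Hochberg adjustment ran over 20071 genes, and p-values rest on the spread between biological replicates. The SE was taken from the log2 fold change and its F statistic. A stage with 0 counts was set to a floor of 3 counts over its libraries, and 1 to 3 counts gave a ratio with an exact 95% interval. Floors and intervals cover counting error only. The totals per library differed little, so depth limits mainly genes under 1 TPM. Alternatives were DESeq2 1.42.0, limma 3.58.1 on log2(TPM + 1), other scalings, no filter, a replicate block, the libraries of 2 stages, and each library left out. The edgeR, DESeq2 and limma fits were tested on simulated data. Coordinates are from GENCODE M21. Tables and plots were made in Python 3.11.15 (pandas 2.3.3, numpy 2.4.6, scipy 1.17.1, matplotlib 3.10.9).

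Values in all libraries are given for called genes that averaged 1 TPM or more at a stage, and genes of the other pathway lists were named from the called ones with the smallest adjusted p, up to 3 in each direction of a comparison. The genes and lists were chosen with earlier results of these data known.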

Additional observations from a re-analysis of the deposited data

How the results depend on the processing

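Of 100 calls among the 43 tested genes over 4 comparisons, 77 were kept under each alternative, 86 under those that left out no library and 80 when each library was left out in turn, and none reversed. By comparison, 27 of 29 calls were kept in MES against ESC, 12 of 21 in CP against MES, 8 of 14 in CM against CP and 30 of 36 in CM against ESC. DESeq2 lost 4 calls and gained 1, RLE scaling lost 1, library totals lost 2 and gained 1, no filter on low counts lost 1, the libraries of 2 stages lost 4 and gained 2, and limma on log2(TPM + 1) lost 12 and gained 2. The causes were not tested. With libraries left out, the count of genes called higher in CM than in CP ranged from 4 to 8 and that called lower from 6 to 11. Deviations between replicates correlated by 0.011 to 0.075 between stages. These correlations count low and high genes alike, so they cannot decide whether replicate numbers pair the libraries. With the number as a block 2 calls were lost, *Wnt9b* in CP (log2 fold change -1.45, adjusted p = 0.0506, edgeR) and *Rspo3* in CM against CP (-1.0). In the same fit 2 were gained, *Rspo2* in MES (2.93) and *Wnt2b* in CM against CP (-1.29). Scaling by library totals moved the median over all genes from 0.11 to 0.33 (log2) in CM against ESC and by at most 0.08 in the other comparisons. With TMM-scaled CPM in place of TPM, the direction of the stage means turned for *Fzd3* and *Lrp5* (CP against MES), *Lrp6* and *Wnt1* (CM against CP), and *Fzd7* and *Wnt16* (CM against ESC).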

Other observations

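*Fzd10os*, a non-coding gene that lies 151 bases from *Fzd10* on the other strand, was also highest in MES, with 1.06 and 0.931 TPM in ESC, 8.15 and 7.55 in MES, then 3.19 and 3.06 in CP, and 1.49 and 2.85 in CM. *Gm20276*, an unconfirmed transcript on the same strand within *Rspo3* that shares no exon base with it, was at 0.0679 and 0.0 TPM in ESC, 17.6 and 15.1 in MES, then 8.18 and 6.45 in CP, and 1.45 and 4.24 in CM. *Gm42449* has the same position relative to *Lef1* and was at 5.26 and 7.58 TPM in ESC, 17.5 and 21.4 in MES, then 8.08 and 10.9 in CP, and 2.24 and 4.68 in CM. Reads of *Gm20276* and *Gm42449* cannot be told apart from unspliced RNA of *Rspo3* and *Lef1*. *Gm26771* overlaps *Sfrp2* on the other strand and was highest in CM replicate 1 (4.30 TPM), where *Sfrp2* was at 27.1 TPM. These genes were chosen after their values were seen.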
